A study of Mus musculus with 39 samples.

Results

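The 10 genes described here handle the storage and release of triglyceride, the neutral fat held in lipid droplets. They were taken as the rows of the deposited count table with the symbols G0s2, Pnpla2, Abhd5, Lipe, Plin2, Medag, Pparg, Angptl4, Lpl and Cd36, which are 10 of its 39676 genes. The set was selected on measured values as well as on function, since G0s2 and Medag were already known to differ with tretinoin in these tumours. The differences of the 10 genes between tretinoin and PBS, and between tretinoin+ICT and ICT, are therefore given as a description. None of the 10 is given a p of its own there, and nothing is read from how many of them passed a threshold. All 10 genes had enough counts to be tested in every comparison.

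The tumours grew from AB1-HA cells, a mouse mesothelioma line carrying influenza haemagglutinin, injected under the skin of adult BALB/c mice of both sexes. PBS mice (n = 10) received vehicle, and Tretinoin mice (n = 9) received tretinoin, which is all-trans retinoic acid, at 5 mg/kg daily for 5 doses from day 4. ICT mice (n = 10) received immune checkpoint therapy, which was 100 µg each of antibodies to CTLA-4 and PD-L1 on day 7. Tretinoin+ICT mice (n = 10) received both. Each tumour was resected on day 9, and a second tumour left in place showed whether a mouse of the combination group responded (6 tumours) or did not respond (4 tumours). Nothing was sorted, so in these whole tumours fewer cells of a type and less RNA per cell cannot be told apart. All tumours come from this single transplanted line, and the legends of the study do not all give the same tretinoin dose.

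Cells release fatty acids from a lipid droplet in steps. Pnpla2 (adipose triglyceride lipase) removes the first fatty acid, and Abhd5 activates it while G0s2 binds and inhibits it. Lipe (hormone-sensitive lipase) acts mainly on the diacylglycerol that remains, and Plin2 coats droplets in most cells outside adipose tissue. Lpl hydrolyses triglyceride in circulating lipoproteins, Angptl4 inhibits Lpl, and Cd36 brings fatty acids and oxidised lipoproteins into the cell. Pparg is the nuclear receptor that drives adipocyte differentiation and many of these genes, and Medag promotes the differentiation of preadipocytes. Macrophages, neutrophils, muscle and endothelium also use these genes, so none of them marks adipocytes alone.

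G0s2 lies on the minus strand of chromosome 1 at chr1:193272161-193273217 (GENCODE M21 on GRCm38), within the span of Lamb3 on the opposite strand. The exons of the 2 genes share 0 bases. Medag lies on the plus strand at chr5:149411749-149431723 and shares 1453 exon bases with Gm20488 on the same strand. Whether reads were counted by strand is not given in the sources used here, so unspliced Lamb3 reads could have been counted for G0s2. The median raw count of Lamb3 was 3 in PBS, 25 in Tretinoin, 9 in ICT and 33 in Tretinoin+ICT tumours, and that of Gm20488 was at most 2 in each group.

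The 250 bases upstream of the start of both genes are shown because G0s2 and Medag had the largest differences with tretinoin among the 10. They are RefSeq promoters on GRCm38.p6, written 5′ to 3′ on the strand of the gene, at chr1:193273189-193273438 for G0s2 and chr5:149411499-149411748 for the first of 2 Medag promoters. Capitals would mark a motif found by a search of both strands, and neither stretch holds one.
G0s2: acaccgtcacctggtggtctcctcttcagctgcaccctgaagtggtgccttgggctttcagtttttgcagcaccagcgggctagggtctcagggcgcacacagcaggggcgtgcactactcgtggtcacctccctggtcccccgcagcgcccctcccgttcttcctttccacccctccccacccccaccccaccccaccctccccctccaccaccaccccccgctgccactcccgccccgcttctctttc
Medag: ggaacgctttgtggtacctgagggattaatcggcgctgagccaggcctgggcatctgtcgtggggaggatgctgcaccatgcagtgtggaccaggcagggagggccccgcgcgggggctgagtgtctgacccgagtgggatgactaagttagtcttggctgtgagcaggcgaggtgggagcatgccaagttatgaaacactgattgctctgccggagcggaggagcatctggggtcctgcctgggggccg
The search covered the nuclear receptor half-site AGGTCA, found in 16.3% of 32851 mouse promoters of the same length, and its direct repeats with 1, 2 or 5 bases between them (AGGTCANAGGTCA, AGGTCANNAGGTCA and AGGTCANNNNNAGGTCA), found in 0.0396%, 0.00913% and 0.00913%. It also covered the E-box CACGTG (7.15%), the C/EBP palindrome TTGCGCAA (0.183%) and the TATA box TATAAA (13.6%). These windows ran from 250 bases before to 50 after each start. Of the 8 genes with a promoter in the table, Abhd5, Plin2, Pparg and Cd36 held a half-site. Lipe, Plin2 and the second Medag promoter held an E-box, and the second Pparg promoter held a TATA box. No direct repeat was found in any of the 8 genes. The end of the Cd36 window, unlike that of the others, was not found in a GENCODE transcript of its gene. A match describes letters in a window and says nothing of binding, and no match says only that these letters are not there.

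Sequencing depth was 14033046 to 37951183 counts per tumour (median 18548168). As a check of the treatment, the retinoic acid hydroxylase Cyp26b1 had mean normalised counts of 152 ± 35.1 in PBS, 5566 ± 848 in Tretinoin, 324 ± 156 in ICT and 2310 ± 621 in Tretinoin+ICT tumours (SD). The mesothelial markers were low, with Upk3b at 0 counts in 36 of 39 tumours and Wt1 at 5 to 165 counts (median 20). Adipocyte markers, such as Adipoq with a median of 244 counts, were present in each tumour. The first digit of the tumour names splits each group into 2 series, which no label calls a batch, and no series holds more than 1 treatment.

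The inhibitor G0s2 had its highest level in the combination. Values are normalised counts (counts divided by the DESeq2 size factor of the tumour). G0s2 ran from 20.0 to 63.99 (median 36.65) in PBS, from 40.43 to 131.9 (median 91.77) in Tretinoin, from 28.18 to 77.84 (median 58.76) in ICT and from 147.3 to 423.3 (median 220.9) in Tretinoin+ICT tumours. Every Tretinoin+ICT tumour was above every tumour of the other groups, while PBS, ICT and Tretinoin tumours overlapped. The means were 36.9 ± 12.7, 87.8 ± 30.3, 53.9 ± 17.4 and 243 ± 92.2 (SD) in that order. The log2 difference in the edgeR fit was 1.25 (SE 0.22) between Tretinoin and PBS and 2.17 (SE 0.22) between Tretinoin+ICT and ICT, as a description.

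The lipases and the co-activator differed less between groups than the inhibitor did. Pnpla2 ran from 987.4 to 1389 normalised counts in PBS, 1022 to 1729 in Tretinoin, 1159 to 2142 in ICT and 1469 to 2186 in Tretinoin+ICT tumours, with means of 1164 ± 118, 1371 ± 217, 1537 ± 315 and 1764 ± 232 (SD). Neighbouring groups overlapped, and only PBS and Tretinoin+ICT tumours did not. Lipe means were 587 ± 100, 796 ± 144, 769 ± 211 and 893 ± 151 normalised counts (SD), and the ranges of every pair of groups overlapped. Abhd5, the co-activator, had the narrowest range, with means of 665 ± 36.2, 671 ± 65.2, 626 ± 54.1 and 601 ± 46.4 normalised counts (SD) and its lowest mean in the combination.

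Set per kilobase of exon, the ratio of G0s2 to its target Pnpla2 was 0.111 ± 0.0389 in PBS, 0.222 ± 0.0683 in Tretinoin, 0.122 ± 0.0353 in ICT and 0.472 ± 0.152 in Tretinoin+ICT tumours (SD). The lowest ratio in the combination was 0.348 and the highest in ICT tumours was 0.166. Tretinoin reached 0.353, so Tretinoin and Tretinoin+ICT tumours overlapped in the ratio although they did not in G0s2 itself. The ratio is of RNA levels, and protein was not measured here.

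Plin2, the droplet coat, was the most abundant of the 10 per kilobase of exon in each group. It ran from 2172 to 3025 normalised counts in PBS, 2690 to 4149 in Tretinoin, 2795 to 4831 in ICT and 3283 to 4558 in Tretinoin+ICT tumours, with means of 2472 ± 247, 3219 ± 492, 3571 ± 574 and 3884 ± 425 (SD). PBS tumours lay lowest and did not overlap with the combination.

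Of the adipogenic pair, Medag differed with tretinoin and Pparg varied little. Medag ran from 383.3 to 590.9 normalised counts (median 441.1) in PBS and from 473.1 to 671.4 (median 538.6) in ICT tumours, against 771.2 to 1197 (median 910.9) in Tretinoin and 722.2 to 1313 (median 941.4) in Tretinoin+ICT tumours. All 19 tumours with tretinoin were above all 20 without it. The means were 456 ± 64.3, 935 ± 138, 546 ± 65.8 and 969 ± 158 normalised counts (SD) in PBS, Tretinoin, ICT and Tretinoin+ICT tumours. The log2 difference of Medag was 1.04 (SE 0.09) between Tretinoin and PBS and 0.83 (SE 0.09) between Tretinoin+ICT and ICT, as a description. Pparg means were between 195 and 205 normalised counts in all groups.

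Among the genes of fatty acid supply, Angptl4 had its highest mean under ICT alone and Lpl and Cd36 in the combination. Angptl4 means were 1528 ± 238 in PBS, 1634 ± 199 in Tretinoin, 2263 ± 422 in ICT and 1772 ± 340 normalised counts in Tretinoin+ICT tumours (SD). Lpl means were 1384 ± 500, 1312 ± 413, 1900 ± 991 and 2389 ± 877 normalised counts (SD), with overlap between every pair of groups. Lpl spread widely within groups, and ICT replicate 3 alone reached 4292 while the other ICT tumours ended at 2371. Cd36 means were 1067 ± 150, 1239 ± 277, 1574 ± 476 and 1972 ± 546 normalised counts (SD), and PBS tumours ended at 1320 below the lowest Tretinoin+ICT tumour at 1351.

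**Figure D1:**
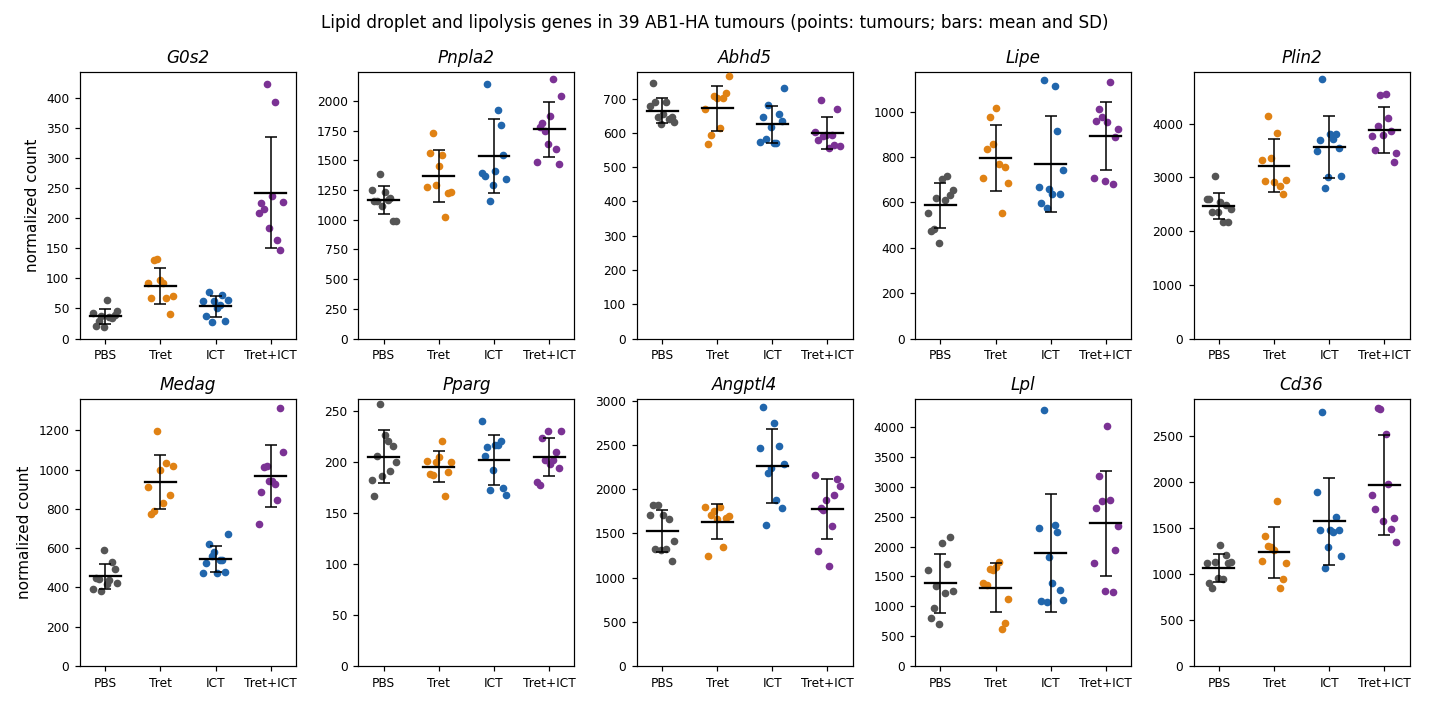
Normalised count (linear axis from 0) of each of the 10 genes in each of the 39 tumours, by treatment, with 1 point per tumour and the mean and SD in black. G0s2 in the 10 Tretinoin+ICT tumours lies above 147, all other tumours lie below 132, and Medag separates the 19 tumours with tretinoin from the 20 without.

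Compared per kilobase of exon, G0s2 had the lowest mean level of the 10 genes in PBS tumours (42.4 normalised counts per kilobase, below Pparg at 69.4). In Tretinoin+ICT tumours it reached 278, above Medag (245), Lpl (228), Lipe (152), Abhd5 (101) and Pparg (69.2), and below Angptl4 (500), Cd36 (549), Pnpla2 (584) and Plin2 (1106). Between groups, 5 genes had no overlap between PBS and Tretinoin+ICT tumours (G0s2, Medag, Pnpla2, Plin2 and Cd36), where 5.33% of 14959 genes had none. Medag alone had none between PBS and Tretinoin (1.96% of genes), G0s2 and Medag had none between ICT and Tretinoin+ICT (0.281%), and G0s2 alone had none between Tretinoin and Tretinoin+ICT (0.682%). Between PBS and ICT each of the 10 genes overlapped, where 0.435% of all genes did not. Overlap of the 10 was judged on normalised counts, and the shares of all genes on log2 counts scaled to a common library size by TMM. G0s2 and Medag were among the values that led to the choice of genes, so nothing is read from their part of these counts.

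Tretinoin against PBS addressed what the retinoid alone does to the tumour. Of the 10 genes, 5 were higher past an adjusted p of 0.05 and 0 lower (Pnpla2 no longer in 14 of the 19 fits that left out 1 tumour), of which G0s2 and Medag were called (adjusted p below 0.05 and a log2 difference of at least 1 in either direction). Among all 14340 genes tested, 11.5% were higher, 8.95% lower and 1.62% called, and nothing is read from the 10 genes here because this contrast helped to choose them. Their median log2 difference was 0.23, beside 0.01 over all genes. Lipe differed by 0.44 (SE 0.11), Plin2 by 0.38 (SE 0.08), Pnpla2 by 0.24 (SE 0.08), Cd36 by 0.22 (SE 0.11), Angptl4 by 0.10 (SE 0.09), Abhd5 by 0.01 (SE 0.05), Pparg by -0.07 (SE 0.07) and Lpl by -0.08 (SE 0.23) on the log2 scale.

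Of the 73 other lipid genes found in the table, 62 were tested between Tretinoin and PBS, and 10 rose and 6 fell (edgeR quasi-likelihood test, Benjamini-Hochberg adjusted over all genes). Beside them, 11.5% of all genes were higher and 8.95% lower. The calls were Mlxipl, a carbohydrate-responsive lipogenic factor, which rose by 1.19 (SE 0.26, adjusted p = 0.00296), and Pdk4, a kinase that restrains glucose oxidation, which rose by 1.19 (SE 0.27, adjusted p = 0.00544). Among genes of triglyceride synthesis Acsl4, an acyl-CoA synthetase that prefers arachidonate, rose by 0.93 (SE 0.09, adjusted p = 3.08e-07) and Acsl3 fell by 0.27 (adjusted p = 0.0015). The elongase Elovl5 rose by 0.47 (adjusted p = 3.02e-05) and Elovl6 fell by 0.30 (adjusted p = 0.0154). Ppargc1a, a co-activator of mitochondrial biogenesis, fell by 0.91 (adjusted p = 0.000182). The glycerol channel Aqp7 rose by 0.93 (adjusted p = 0.0275). Gpihbp1, which holds Lpl on capillaries, rose by 0.26 (adjusted p = 0.0374). No droplet protein (8 tested) and no uptake gene (6 tested) passed. The summed endothelial markers were 263 to 374 CPM (counts scaled to a common library size) in Tretinoin and 232 to 286 CPM in PBS tumours, while the summed macrophage markers were 2090 to 4220 CPM and 1940 to 2920 CPM. Of the 5 macrophage markers, C1qa (0.45, adjusted p = 0.0213) and C1qb (0.49, adjusted p = 0.0257) rose. Csf1r (0.28, adjusted p = 0.0632), Mrc1 (0.17, adjusted p = 0.383) and Cd68 (-0.06, adjusted p = 0.566) did not pass. The mesothelial marker Wt1 (1.12, adjusted p = 0.0157) rose. The part of these cell types in the differences was not tested.

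ICT against PBS addressed the checkpoint antibodies alone. It was not itself used to choose the genes, but its PBS and ICT tumours were the reference groups of the contrasts that were. G0s2 and Medag are therefore described without a p, and nothing is read from their part of the counts. Here 6 of the 10 genes rose (edgeR, adjusted over 14155 genes), where 14.1% of all genes were higher, 7.15% lower and 2.35% called. Plin2 rose by 0.53 on the log2 scale (SE 0.08, adjusted p = 0.000456), Angptl4 by 0.56 (SE 0.11, adjusted p = 0.00216), Cd36 by 0.56 (SE 0.13, adjusted p = 0.00836) and Pnpla2 by 0.40 (SE 0.10, adjusted p = 0.0086). Lipe rose by 0.39 (SE 0.14, adjusted p = 0.0476). Medag, counted among the 6, differed by 0.26 (SE 0.08), as a description. The inhibitor G0s2 differed by 0.54 (SE 0.21), as a description. Lpl differed by 0.45 (SE 0.27, adjusted p = 0.224), which was not past the threshold. Abhd5 (-0.09, SE 0.05, adjusted p = 0.18) and Pparg (-0.03, SE 0.08, adjusted p = 0.836) did not pass either. The median over the 10, which include G0s2 and Medag, was 0.42, beside -0.02 over all genes, as a description. By edgeR and by DESeq2 0 of the 10 were called at a log2 difference of 1. In edgeR 7 of the 10, with G0s2 and Medag among them, had an unadjusted p below 0.05, beside 5159 of all 14155 genes.

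Of the 6, Lipe no longer passed in 11 of the 20 fits that left out 1 tumour (adjusted p up to 0.1). The log2 difference in these fits ran from 0.217 to 0.305 for Medag and from 0.462 to 0.663 for G0s2, as a description. Fits of 1 series of ICT tumours against 1 of PBS tumours, with fewer tumours each, left 0, 2, 0 and 4 genes past the threshold. All 5 tested neutrophil markers, all 5 macrophage markers and the mesothelial marker Wt1 (1.40, adjusted p = 0.00443) rose under ICT. The summed neutrophil markers (6 genes, led by Csf3r, with Ly6g at 0 counts in 11 of 39 tumours) were 46.4 to 111 CPM in PBS, 56.6 to 162 CPM in Tretinoin, 68.2 to 268 CPM in ICT and 103 to 260 CPM in Tretinoin+ICT tumours. The summed macrophage markers (5 genes, led by Csf1r and C1qa) were 1940 to 2920 CPM in PBS and 2070 to 4310 CPM in ICT tumours. The part of these cell types in the 6 differences was not tested.

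Of 61 other lipid genes tested between ICT and PBS, 14 rose and 5 fell, where 14.1% of all genes were higher and 7.15% lower. Hcar2, a receptor for hydroxybutyrate and niacin that restrains lipolysis, rose by 2.20 on the log2 scale (SE 0.42, adjusted p = 0.00257), and the droplet factor Hilpda, an inhibitor of Pnpla2, rose by 0.35 (SE 0.09, adjusted p = 0.0119). Of the C/EBP factors that act in adipogenesis and inflammation, Cebpb rose by 1.59 (SE 0.21, adjusted p = 0.000118) and Cebpd by 0.99 (SE 0.11, adjusted p = 2.81e-05). Vldlr, a lipoprotein receptor, rose by 0.63 (adjusted p = 0.004), Ucp2, a mitochondrial carrier, by 0.67 (adjusted p = 0.00795) and Fabp5, a fatty acid binding protein, by 0.78 (adjusted p = 0.0157). Acsl4 rose by 0.41 (adjusted p = 0.00155), Lpin2 by 0.32 (adjusted p = 0.0453), the dehydrogenase Acadl by 0.16 (adjusted p = 0.0116) and the droplet enzyme Hsd17b11 by 0.26 (adjusted p = 0.0307). Me1 (by 0.24, adjusted p = 0.0173) and Acaca (by 0.19, adjusted p = 0.0389), both of fatty acid synthesis, fell by the amounts given. Cebpb and Hcar2 were the calls among the 61.

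Tretinoin+ICT against ICT addressed what tretinoin adds to the antibodies. G0s2 and Medag were past an adjusted p of 0.05, both higher, and G0s2 was called. Of 14202 genes tested, 1.57% were higher, 0.422% lower and 0.394% called, and nothing is read from the 2 genes because this contrast helped to choose them. The other log2 differences were 0.33 (SE 0.26) for Lpl, 0.32 (SE 0.16) for Cd36, 0.21 (SE 0.13) for Lipe, 0.20 (SE 0.10) for Pnpla2, 0.12 (SE 0.08) for Plin2, 0.02 (SE 0.08) for Pparg, -0.06 (SE 0.06) for Abhd5 and -0.35 (SE 0.12) for Angptl4. Angptl4 values overlapped between both groups, and without ICT replicate 3 its difference was -0.40. The median over the 10, which include G0s2 and Medag, was 0.21, beside -0.005 over all genes, as a description.

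Of 63 other lipid genes, 3 passed between Tretinoin+ICT and ICT (edgeR, adjusted over all genes), where 1.57% of all genes were higher and 0.422% lower. Acsl4 rose by 0.48 (SE 0.10, adjusted p = 0.0115) and Elovl5 by 0.29 (SE 0.07, adjusted p = 0.0243), and the fatty acid transporter Slc27a1 fell by 0.36 (SE 0.09, adjusted p = 0.0267). By edgeR and by DESeq2, 0 of the 63 were called at a log2 difference of 1. In edgeR 19 of the 63 had an unadjusted p below 0.05, beside 2571 of all 14202 genes. DESeq2 put 5 past the threshold, and leaving out ICT replicate 3 put 10 there. No neutrophil, macrophage or adipocyte marker passed in this comparison, and the summed neutrophil markers were 68.2 to 268 CPM in ICT and 103 to 260 CPM in Tretinoin+ICT tumours. The part of these cell types in the difference of G0s2 was not tested.

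Tretinoin+ICT against Tretinoin addressed what the antibodies add to tretinoin. It was not itself used to choose the genes, but its tumours were in the contrasts that were. G0s2 and Medag are therefore described without a p, and nothing is read from their part of the counts. Here 5 of the 10 rose (edgeR, adjusted over 14393 genes), where 12.3% of all genes were higher, 9.01% lower and 2.08% called. G0s2 differed by 1.46 on the log2 scale (SE 0.22), as a description, and was the one gene called. Lpl rose by 0.87 (SE 0.23, adjusted p = 0.0162), Cd36 by 0.67 (SE 0.15, adjusted p = 0.00744), Pnpla2 by 0.37 (SE 0.09, adjusted p = 0.0113) and Plin2 by 0.27 (SE 0.08, adjusted p = 0.0258). Abhd5 differed by -0.16 (SE 0.06, adjusted p = 0.0582), Lipe by 0.17 (SE 0.11, adjusted p = 0.268), Angptl4 by 0.12 (SE 0.11, adjusted p = 0.428) and Pparg by 0.07 (SE 0.07, adjusted p = 0.463), none past the threshold. Medag differed by 0.06 (SE 0.10), as a description. The median over the 10, which include G0s2 and Medag, was 0.22, beside -0.004 over all genes, as a description. G0s2 lay between 1.34 and 1.56 in the 19 fits that left out 1 tumour.

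Against series 3 of the Tretinoin tumours alone, G0s2 differed by 1.27 and 1.17 from the 2 combination series, as a description. The 4 fits of 1 series against another left 0, 0, 2 and 1 of the 10 genes past the threshold. Nothing is read from the part of G0s2 in these counts. Plin2 no longer passed in 6 of the 19 fits that left out 1 tumour (adjusted p up to 0.0562), and Abhd5 passed in 5 (adjusted p as low as 0.0264). All 5 tested neutrophil markers, 3 of 5 macrophage markers and Wt1 (1.27, adjusted p = 0.025) rose beside these genes. The part of these cell types in the 5 differences was not tested.

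**Figure D2:**
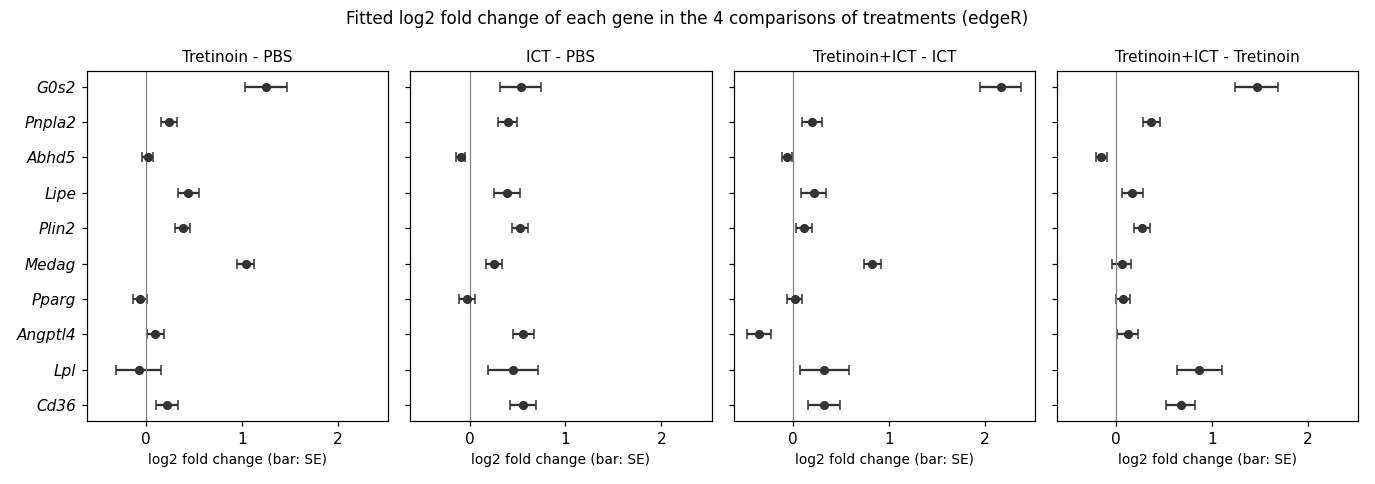
Fitted log2 fold change (horizontal axis, bar: SE) of each of the 10 genes in the 4 comparisons of treatments. G0s2 lies farthest to the right in Tretinoin+ICT against ICT (2.17) and against Tretinoin (1.46), and Angptl4 lies to the left in Tretinoin+ICT against ICT (-0.35).

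Of 63 other lipid genes tested between Tretinoin+ICT and Tretinoin, 10 rose and 7 fell, where 12.3% of all genes were higher and 9.01% lower. Cebpb rose by 1.51 on the log2 scale (SE 0.24, adjusted p = 0.000616), Hcar2 by 1.97 (SE 0.54, adjusted p = 0.0181) and Cebpd by 0.87 (SE 0.12, adjusted p = 0.000128). Hilpda rose by 0.62 (SE 0.15, adjusted p = 0.0098), Fabp5 by 0.90 (adjusted p = 0.0177), Ucp2 by 0.64 (adjusted p = 0.00835), Acadl by 0.33 (adjusted p = 0.0022) and Hsd17b11 by 0.31 (adjusted p = 0.0285). Fatty acid synthesis genes Acaca (by 0.41, adjusted p = 0.0217) and Fasn (by 0.40, adjusted p = 0.0446) fell by the amounts given. Lpin3 (by 0.43, adjusted p = 0.00467) and Gpam (by 0.38, adjusted p = 0.0369), both of glycerolipid synthesis, fell too, as did Gpihbp1 (by 0.44, adjusted p = 0.0258) and the receptor Lrp1 (by 0.36, adjusted p = 0.0258). Cebpb and Hcar2 were the calls. Of the endothelial markers 2 of 5 fell beside Gpihbp1, with sums of 255 to 322 CPM in Tretinoin+ICT and 263 to 374 CPM in Tretinoin tumours, and their part was not tested. ICT was compared with PBS and the combination with tretinoin in different tumours, so both comparisons have their own controls.

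**Figure D3:**
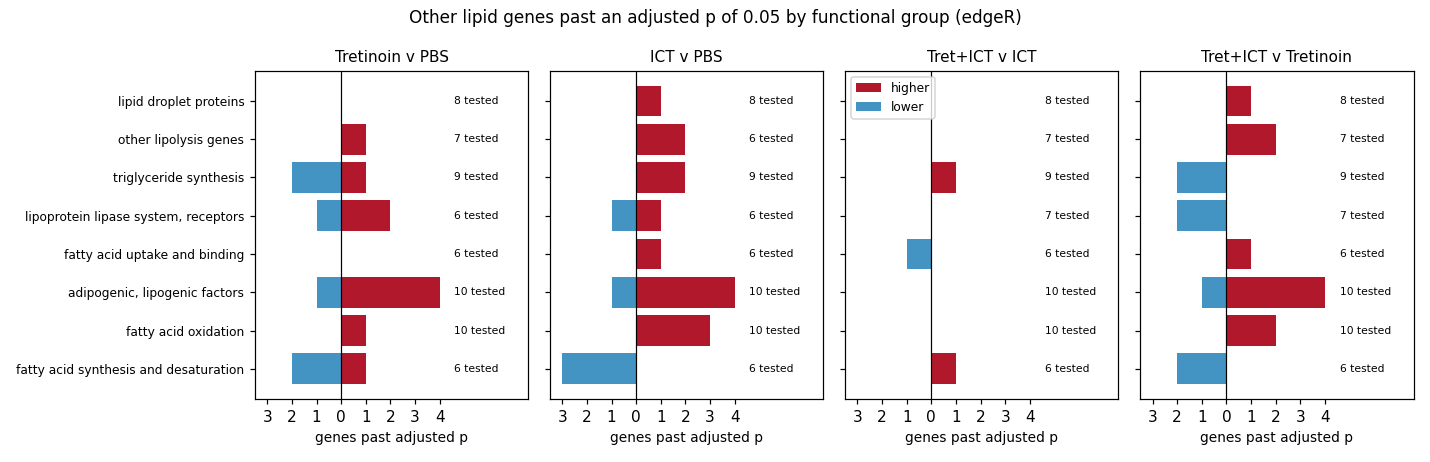
Number of other lipid genes (horizontal axis) past an adjusted p of 0.05 in edgeR, higher to the right and lower to the left, by functional group and comparison, with the number tested at the right. Counts in Tretinoin+ICT against ICT are 2 higher and 1 lower, against 14 and 5 in ICT against PBS. Over all genes 1.57% were higher and 0.422% lower in the former, and 14.1% and 7.15% in the latter.

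Whether the tretinoin difference changed with ICT was tested as an interaction over all 39 tumours. The term is the tretinoin difference with ICT minus that without it, both of which helped to choose the genes. Each of the 10 is therefore described without its own p, and nothing is read from how many of them passed a threshold. G0s2 had a term of 0.92 on the log2 scale (SE 0.31), Angptl4 one of -0.45 (SE 0.16), Plin2 one of -0.26 (SE 0.12) and Medag one of -0.21 (SE 0.13). By edgeR and by DESeq2, 0 of the 10 genes had an adjusted p below 0.05. In edgeR 0.0401% of all 14977 genes had a positive and 0.267% a negative term past that threshold. At an unadjusted p below 0.05 there were 3 of the 10 in edgeR, beside 1415 of all 14977 genes. None of the 63 other lipid genes passed by edgeR or DESeq2, with 6 at an unadjusted p below 0.05.

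Within the combination, responders and non-responders were compared. G0s2 was 147.3, 183.2, 208.4 and 216.0 normalised counts in the 4 non-responders and 163.9 to 423.3 (median 232.2) in the 6 responders, so the groups overlapped. The log2 difference, responders minus non-responders, was 0.57 (SE 0.26, adjusted p = 0.217 in edgeR). Pnpla2 differed by 0.23 (SE 0.10, adjusted p = 0.182), Lpl by 0.38 (SE 0.32, adjusted p = 0.51) and Angptl4 by -0.28 (SE 0.15, adjusted p = 0.301). Abhd5 was 594.0, 602.7, 670.6 and 695.4 normalised counts in non-responders and 555.4 to 594.0 in responders, the highest responder just below the lowest non-responder, with a log2 difference of -0.15 (SE 0.07, adjusted p = 0.196). It was the one gene of the 10 without overlap on normalised counts, where 5.61% of all genes had none on log2 CPM. edgeR put 0% of 14604 genes past the threshold in either direction and called 0%, with 3302 genes, 3 of the 10 (G0s2, Pnpla2 and Abhd5) and 17 of 64 other lipid genes at an unadjusted p below 0.05. DESeq2 also put 0 of the 10 past it but 864 genes higher and 537 lower, 7 of them other lipid genes. Summed neutrophil markers were 131 to 260 CPM in responders and 103 to 161 CPM in non-responders, and macrophage markers 3450 to 4010 CPM and 2750 to 3280 CPM, and their part in these values was not tested.

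Within treatment groups the genes followed the marker sums to different degrees. Each log2 CPM value was taken minus the mean of its treatment group, and 50 pairs of a gene and a marker list were tested over 39 tumours (two-sided permutation within groups, Benjamini-Hochberg adjusted), of which 18 were positive and 4 negative at an adjusted p below 0.05. The name series within a group were not centred or kept apart in the permutations. Mean Lpl was 1084 and 1685 normalised counts in PBS series 1 and 5, and 1524 and 1048 in Tretinoin series 3 and 7. Mean Medag was 452 and 459 in the former, and 933 and 938 in the latter. The part of the series in these relations was not tested. With neutrophil markers, Plin2 had r = 0.781 (rho 0.733), Pnpla2 r = 0.752 (rho 0.688), Cd36 r = 0.629 (rho 0.668), Lpl r = 0.62 (rho 0.587), Lipe r = 0.607 (rho 0.602) and G0s2 r = 0.567 (rho 0.531), with adjusted permutation p between 0.000167 and 0.00119 for r and between 0.00025 and 0.004 for rho. The smallest p that the permutations could give was 1e-05. Without the 2 tumours farthest from the median of the neutrophil sum, r was 0.758, 0.698, 0.585, 0.562, 0.529 and 0.507 in that order.

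With adipocyte markers (7 genes, led by Car3), Lipe had r = 0.716 (rho 0.709, adjusted permutation p = 0.000167 and 0.000375), Lpl r = 0.67 (rho 0.667, 0.00025 and 0.0005) and G0s2 r = 0.52 (rho 0.53, 0.00391 and 0.00415), and without the 2 farthest tumours r was 0.673, 0.62 and 0.448. The relation of G0s2 to adipocyte markers was 0.657 within PBS, 0.606 within Tretinoin and 0.686 within ICT tumours, and 0.101 within Tretinoin+ICT tumours, and the difference between groups was not tested. That of G0s2 to neutrophil markers was 0.416, 0.712, 0.357 and 0.89 in the same order. The adipocyte sum itself was 55.6 to 341 CPM in PBS, 103 to 427 CPM in Tretinoin, 71.4 to 306 CPM in ICT and 86.1 to 380 CPM in Tretinoin+ICT tumours, and 0 of its 7 genes passed in any of the 4 comparisons of treatments. Car3 alone had a mean of 149 CPM in PBS tumours, where the sum had a mean of 202 CPM, so the sum mostly reflects Car3.

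Abhd5 went the other way, with r = -0.592 to macrophage markers (rho -0.597, adjusted permutation p = 0.000958 and 0.00167) and r = -0.536 to neutrophil markers (rho -0.479, adjusted permutation p = 0.00383 and 0.0141), and without the 2 farthest tumours r was -0.53 and -0.522. Pnpla2 and Plin2 had r = 0.663 and 0.69 with macrophage markers (rho 0.517 and 0.55, adjusted permutation p for r 0.00025 each, for rho 0.00543 and 0.004, r without the 2 farthest 0.555 and 0.557). For G0s2 and macrophage markers r was 0.446 (rho 0.385, adjusted permutation p = 0.0194 and 0.0494), and 0.349 without those 2. With the 4 mesothelial markers, of which Wt1 gave most counts, Lipe had r = 0.606 (rho 0.583), Pnpla2 r = 0.587 (rho 0.565), Lpl r = 0.535 (rho 0.46), Angptl4 r = -0.516 (rho -0.431) and G0s2 r = 0.389 (rho 0.346), with adjusted permutation p for r of 0.000429, 0.000958, 0.00221, 0.00622 and 0.0432 and for rho of 0.00125, 0.00225, 0.0143, 0.0268 and 0.08. Without the 2 farthest tumours r was 0.591, 0.562, 0.497, -0.451 and 0.355. No relation of Medag or Pparg to any of the 5 lists passed for r. For Medag and adipocyte markers r was 0.343 (adjusted permutation p = 0.0795), rho passed at 0.449 (adjusted permutation p = 0.0177), and r was 0.567 without the 2 farthest tumours. The genes and markers share their libraries, and r describes these tumours without a direction between them.

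**Figure D4:**
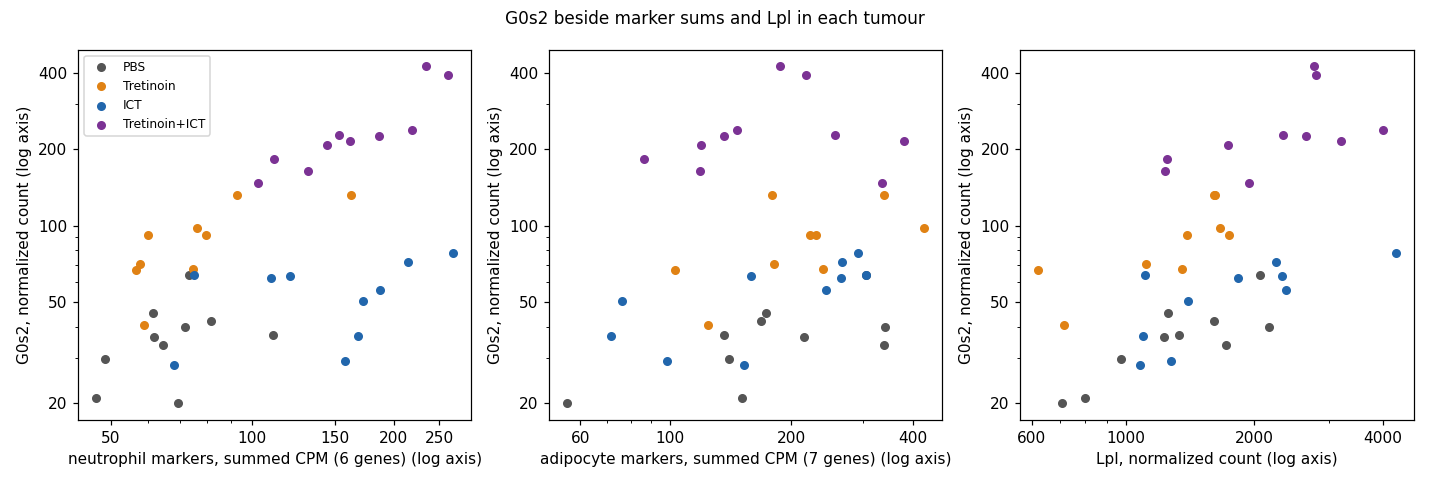
G0s2 normalised count (vertical log axis) in each of the 39 tumours against the summed CPM of 6 neutrophil markers, the summed CPM of 7 adipocyte markers and the Lpl normalised count (horizontal log axes), coloured by treatment. Neutrophil sums run from 68.2 to 268 CPM in ICT and from 103 to 260 CPM in Tretinoin+ICT tumours, and the part of neutrophils in G0s2 was not tested.

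Among the 10 genes, G0s2 varied most like Lpl within groups (r = 0.715 over 39 tumours, without a test), then Lipe (0.647), Cd36 (0.558), Plin2 (0.479) and Pnpla2 (0.44), and its r with Medag was -0.03. Lipe and Lpl had the closest relation of any pair (0.809), followed by Lpl and Cd36 (0.78). Of 14958 genes, the 5 with the highest r to G0s2 were Ffar2 (0.736), Prtn3 (0.72), Lpl (0.715), Apoc1 (0.715) and Popdc3 (0.71). Ffar2 encodes a receptor for short-chain fatty acids, Prtn3 a granule protease of neutrophils, and Apoc1 an apolipoprotein that inhibits Lpl.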

How the data were processed

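RNA of 39 AB1-HA tumours was sequenced single-end, and the authors aligned the reads with HISAT2 (2.0.4 per the processing notes) to the mouse genome they name mm11 and counted them per gene with SummariseOverlaps. The deposited values are raw counts per gene for each tumour, whole numbers without normalisation. Handling of reads aligned to several places is not given in the sources used here. Depth was 14033046 to 37951183 counts per tumour. Tumours were grouped by their labels, and replicate numbers follow accession order and pair nothing. Of the identifiers, 39495 were in GENCODE M21.

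In R 4.3.3, edgeR 4.0.16 (TMM, filterByExpr, robust quasi-likelihood F test, Benjamini-Hochberg adjustment over all genes tested) was run on the tumours of each comparison, and on all 39 for the interaction. The standard error is the absolute log2 fold change over the square root of F. Normalised counts use DESeq2 1.42.0 size factors, and CPM uses TMM. Correlations used 100000 permutations within groups. Scripts were tested on simulated data. Alternatives were DESeq2, its size factors, other filters, 1 fit of all tumours, name series and each tumour left out. The 10 genes, the 84 other lipid genes (73 found) and the marker lists were chosen with earlier results of these data known. Of the other lipid genes the text names every call and, in each functional group, up to 2 with the smallest adjusted p past 0.05, apart from 1 gene that is not reported here. Listed genes absent from the table were not analysed here, among them Cfd, Lipa, Plin3, Scd1 and Lyz2. Fibroblast, skeletal muscle and T cell markers were summed too, and none of their genes passed in a comparison of treatments, except 1 of 3 fibroblast genes, lower in Tretinoin+ICT than in Tretinoin. Labels do not say whether each tumour came from its own mouse, while the study describes 1 resected tumour per mouse. The p-values measure the spread between these samples.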

Additional observations from a re-analysis of the deposited data

Results flagged for a closer look

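Of 60 groups of values examined (10 genes in 4 treatment groups, responders and non-responders), 4 held a tumour far from the rest by Dixon's criterion, where chance gives about 1 in 20. ICT replicate 3 was the high tumour in 3 of them. It had 4831.5 normalised counts of Plin2 (the other ICT tumours 2794.6 to 3815.2), 4292.2 of Lpl (1079.1 to 2371.2) and 2765.5 of Cd36 (1068.5 to 1896.8). Without it the ICT minus PBS difference on the log2 scale was 0.473 for Plin2 (edgeR adjusted p = 0.000228), 0.433 for Cd36 (adjusted p = 0.00632) and 0.238 for Lpl (adjusted p = 0.517). PBS replicate 4 had 3025.4 normalised counts of Plin2, and the other PBS tumours had 2171.8 to 2599.7.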

How the results depend on the processing

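DESeq2 in place of edgeR, its size factors in edgeR, other low count filters and 1 fit of all tumours left the counts of the 10 genes past an adjusted p of 0.05, and of those called, within 1.5 times of the values given. Of the single gene differences, these settings turned the sign of responders minus non-responders for Cd36 (-0.011 with no low count filter). Among the other lipid genes past the threshold, Tretinoin+ICT against ICT gave 5 by DESeq2 and 7 in 1 fit of all tumours in place of 3, and responders against non-responders gave 7 by DESeq2 in place of 0. Over all genes, calls in Tretinoin against PBS were 232 by edgeR and 351 by DESeq2, in Tretinoin+ICT against ICT 56 by edgeR, 137 by DESeq2, 101 in 1 fit of all tumours and 31 with at least 10 counts in every tumour, in Tretinoin+ICT against Tretinoin 300 and 458, and in responders against non-responders 0 and 121. For Tretinoin+ICT against Tretinoin 89.7% of calls were higher, and 74.9% with no low count filter. For the interaction 9 genes by edgeR and 20 by DESeq2 had a term past the threshold and at least 1 in size, in either direction. Terms past the threshold of any size numbered 6 positive and 40 negative by edgeR, 13 and 71 by DESeq2 and 4 and 25 with no low count filter. Name series as a term in responders against non-responders put 0 of the 10 genes past the threshold. No paired analysis was possible because the labels give no replicate numbers that the groups share.

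Fits of 1 name series against another hold fewer tumours. Nothing is read from the part of G0s2 and Medag in the counts of the 10 genes below. For Tretinoin against PBS, 1 of the 10 genes passed and 1 was called in series 7 against 1 and in 7 against 5, and 4, 10 and 5 other lipid genes passed in 7 against 1, 3 against 5 and 7 against 5. G0s2 differed there by 1.17 (7 against 1) and 0.618 (7 against 5), as a description. For ICT against PBS, 0, 2 and 0 of the 10 and 0, 5 and 0 other lipid genes passed in 6 against 1, 8 against 1 and 6 against 5. For Tretinoin+ICT against ICT, 1 of the 10 passed in 2 against 8, and 0 other lipid genes passed in any of the 4 fits. For Tretinoin+ICT against Tretinoin, 0, 0, 2 and 1 of the 10 and 0, 1, 9 and 9 other lipid genes passed in 2 against 3, 4 against 3, 2 against 7 and 4 against 7, and 0 of the 10 were called against series 3. Signs turned for Abhd5 (-0.071 in 3 against 1, -0.011 in 3 against 5) and Lpl (0.484 in 3 against 1) in Tretinoin against PBS, for Pparg (0.028 in 6 against 1, 0.003 in 8 against 1) and Lpl (-0.002 in 8 against 5) in ICT against PBS, for Pparg (-0.019 in 2 against 6) in Tretinoin+ICT against ICT, and for Lipe (-0.013 in 2 against 3) and Medag (-0.027 in 2 against 3, -0.034 in 2 against 7) in Tretinoin+ICT against Tretinoin. The cause was not tested.

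With 1 tumour left out at a time, genes called of the 10 in Tretinoin against PBS were 1 to 2 (1 without Tretinoin replicate 4), and other lipid genes past the threshold were 1 to 10 in Tretinoin+ICT against ICT (1 without Tretinoin+ICT replicate 2, 10 without ICT replicate 3) and 0 to 8 in responders against non-responders (8 without Tretinoin+ICT replicate 8). Log2 differences that turned sign ran from -0.014 to 0.04 for Abhd5 and from -0.152 to 0.017 for Lpl in Tretinoin against PBS, from -0.057 to 0.014 for Pparg in ICT against PBS, from -0.01 to 0.049 for Pparg in Tretinoin+ICT against ICT, from -0.002 to 0.103 for Medag in Tretinoin+ICT against Tretinoin, and from -0.107 to 0.206 for Cd36, from -0.205 to 0.1 for Medag and from -0.097 to 0.022 for Pparg in responders against non-responders. Pnpla2 in Tretinoin against PBS no longer passed without PBS replicate 1, 2, 3, 5, 6, 7, 8, 9 or 10 or Tretinoin replicate 2, 3, 4, 5 or 6, Lipe in ICT against PBS without PBS replicate 1, 2, 3, 4, 5, 7, 9 or 10 or ICT replicate 3, 7 or 8, and Plin2 in Tretinoin+ICT against Tretinoin without Tretinoin+ICT replicate 4 or 6 or Tretinoin replicate 5, 7, 8 or 9. Abhd5 passed there without Tretinoin+ICT replicate 3 or 9 or Tretinoin replicate 2, 3 or 6. On variance stabilised values, averaged over the markers of a list, 8 more pairs of a gene and a marker list passed. With endothelial markers these were G0s2 (r = -0.437), Pnpla2 (-0.411), Lipe (-0.497), Plin2 (-0.455) and Cd36 (-0.451). The others were Medag with adipocyte markers (0.366) and Cd36 with macrophage (0.384) and mesothelial markers (0.445). Lpl with endothelial markers passed on both scales (-0.375 on log2 CPM, -0.539 here). The correlation with endothelial markers turned to -0.029 for Medag and 0.07 for Angptl4. Ranked by Spearman's rho, 3 of the 5 genes most like G0s2 stayed in the list. Precision is limited by depth for the few counts of genes such as Ly6g and Upk3b.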
